A study of Mus musculus with 12 samples.

Results

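The 37 genes described here mark excitatory neurons of the cerebral cortex, either as a class or by the layer in which they lie. They were chosen by symbol from a list of upper-layer, layer 4, layer 5, layer 6 and pan-excitatory markers, and each symbol was found through its Ensembl identifier in GENCODE mouse M21. All 37 were found among the 54232 gene identifiers of the count table, and all 37 were among the 18016 genes that passed the filter on low counts and were tested. By layer, 6 are pan-excitatory genes, 8 mark the upper layers, 2 mark layer 4, 8 mark layer 5 and 9 mark layer 6. The other 4 (Qrfpr, Parm1, Whrn and Plcxd2) were not assigned to a layer and are kept apart. The assignment of genes to layers was made here from textbook knowledge.

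RNA was sequenced from the cortex of 12 C57BL/6J mice aged 12 weeks, a model of Pierpont syndrome. The wild-type mice were 3 females (animals 2, 4 and 5) and 3 males (animals 8, 12 and 13). The mutant mice were homozygous for the Y446C substitution in Tbl1xr1, and were again 3 females (animals 1, 3 and 6) and 3 males (animals 7, 10 and 27). TBL1XR1 is a subunit of the NCoR and SMRT corepressor complexes, which hold genes bound by nuclear receptors and other factors in a repressed state. The allele is present in every cell of the body from conception, so a value in adult cortex does not separate development from adult expression. Counts per gene do not show the substitution itself.

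The cerebral cortex is built of layers of glutamatergic neurons that are born in sequence, the deep layers first. Transcription factors such as Tbr1, Fezf2, Bcl11b and Cux2 set up and keep the identities of neurons that project to the thalamus, to the brainstem and spinal cord, and to other cortical areas. Each layer class keeps a set of transcription factors, channels, receptors and matrix enzymes in the adult, which is why these genes serve as markers. Several of them are not restricted to cortex: Bcl11b and Foxp2 are also made by striatal neurons, Slc17a6 by thalamic neurons and Lamp5 by some interneurons.

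Total counts ran from 21238427 to 32669138 in 11 libraries, and female mutant 3 held 3748515. That library also carried 31.6% mitochondrial counts against 5.23 to 10.4% elsewhere, and its median rank correlation with the others was 0.921 against 0.988 to 0.992. It was the highest or the lowest library for 79.5% of all tested genes, so values that it moved far are also given without it. At its depth 3 counts correspond to 1.16 counts per 1000000 of the scaled total (CPM), against 0.0861 to 0.137 CPM in the other libraries, and such floors cover counting error only. Lists of markers of neighbouring tissue also differed between libraries: the 13 striatal genes summed to 764 to 2720 CPM in wild-type and 452 to 1590 CPM in mutant libraries, and all 13 had the lower fitted level in mutants, around a median of -0.79 on the log2 scale. The 7 thalamic genes summed to 122 to 306 CPM in wild-type and 65.7 to 296 CPM in mutant libraries. No gene of either list was at 0 in any library, and their part in the results was not tested. Some fits below hold the striatal list as a covariate. Because that list itself differs by genotype, these fits cannot tell genotype and striatal level apart.

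Promoters are shown for 3 members whose counts come up again below. Syt6 and Pcp4 are shown for a nuclear receptor half-site, because the protein altered in these mice acts on genes bound by nuclear receptors. Lamp5 is shown for a sequence bound by Neurod proteins. Of the 37 members, 25 matched the RefSeq promoter table (build GRCm38.p6), with 32 windows of 300 bases. Each window runs from upstream of a start site to just inside the transcript. The nuclear receptor half-site AGGTCA, searched on both strands, is in 3 of the 32 windows (9.38%) and in 16.3% of all 32851 windows of that length. The 3 windows belong to Pcp4 and to overlapping starts of Syt6. The E-box CAGATG, a sequence bound by Neurod proteins and searched on both strands, is in 6 of the 32 windows (18.8%) and in 17.2% of all. Neither share says that a factor binds there. Another window of Lamp5 (chr2:136052089-136052388, + strand) holds neither motif and is not shown. Below, capitals mark the half-site in Syt6 (chr3:103574995-103575294, + strand), the half-site on the opposite strand in Pcp4 (chr16:96467356-96467655, + strand) and the E-box in Lamp5 (chr2:136057498-136057797, + strand).
Syt6: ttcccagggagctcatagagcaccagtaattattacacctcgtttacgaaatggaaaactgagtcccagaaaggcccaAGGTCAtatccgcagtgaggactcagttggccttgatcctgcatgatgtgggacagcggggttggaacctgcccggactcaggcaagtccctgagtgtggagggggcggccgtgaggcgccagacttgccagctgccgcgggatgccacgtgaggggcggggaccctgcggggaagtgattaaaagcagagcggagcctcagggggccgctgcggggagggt
Pcp4: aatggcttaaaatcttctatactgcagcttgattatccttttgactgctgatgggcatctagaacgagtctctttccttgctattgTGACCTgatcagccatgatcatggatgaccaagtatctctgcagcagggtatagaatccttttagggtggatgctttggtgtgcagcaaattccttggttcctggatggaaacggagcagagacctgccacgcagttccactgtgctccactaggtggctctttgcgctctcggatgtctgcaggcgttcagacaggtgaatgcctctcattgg
Lamp5: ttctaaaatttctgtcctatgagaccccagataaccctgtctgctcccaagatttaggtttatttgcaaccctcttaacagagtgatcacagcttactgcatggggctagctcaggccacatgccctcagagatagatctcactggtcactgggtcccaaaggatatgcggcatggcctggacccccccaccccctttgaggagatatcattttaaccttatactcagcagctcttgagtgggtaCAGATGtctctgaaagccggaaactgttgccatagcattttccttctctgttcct

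Levels of different genes were compared as CPM per kilobase of merged exons, as the mean and SD over the 6 wild-type libraries. The pan-excitatory genes span the widest range. Camk2a, a kinase of the postsynaptic density, was the most abundant member at 314 ± 22.2 CPM per kilobase. Slc17a7, the vesicular glutamate transporter of cortical projection neurons, followed at 132 ± 21.3, and Neurod1, a bHLH transcription factor, had 3.79 ± 0.732. Among upper-layer genes Lamp5, a lysosome-associated membrane protein, led with 47.8 ± 6.42 CPM per kilobase, ahead of the calcium-binding protein Calb1 with 29.4 ± 2.25. Lamp5 and the bHLH factor Neurod6 (43.6 ± 2.88) came next after Slc17a7 in level, and their means differed by less than the SD of Lamp5.

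Of the layer 4 genes Scnn1a, a subunit of the epithelial sodium channel, had 1.08 ± 0.108 CPM per kilobase, a level above 28.9% of tested genes, and Rspo1, a secreted enhancer of Wnt signalling, had 3.97 ± 0.998, above 53.6%. In layer 5 the co-regulator Ldb2 led with 17.6 ± 1.45 CPM per kilobase, with Bcl11b at 16.5 ± 3.41 and Fezf2, a zinc-finger factor of subcerebral projection neurons, at 6.65 ± 0.408. Layer 6 was led by the T-box factor Tbr1 at 22.6 ± 3.02 and ended with the adaptor protein Sla at 1.03 ± 0.191, the lowest of all members and within 1 SD of Scnn1a. The markers of the labelled tissue were thus all detected, and Slc17a7 exceeded Slc17a6 (15.3 ± 5.89 CPM per kilobase) in every wild-type library.

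Between wild-type mice, members varied by a median coefficient of variation of 12.7%, against 10.4% for all tested genes of at least 1 CPM. Slc17a6 varied most (38.4%), then Syt6 (32.4%), and the phospholipase-like gene Plcxd2 varied least (4.55%).

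The first comparison asked whether cortical neuron classes were present at other RNA levels in mutant than in wild-type cortex. No member passed the test over both sexes: 0 of 37 had an adjusted p under 0.05 by edgeR, where 0.00555% of all tested genes (1 of 18016) did, and adjusted p-values of members ran from 0.95 to 0.999. DESeq2, limma-voom and limma-voom with library weights also called 0 members, where they called 29, 1 and 22 of 18016 genes. At an unadjusted p under 0.05 there were 4 members (Unc5d, Lamp5, Neurod1 and Ldb2), 2 of them from the upper layers, against 3.96% of all genes. Mutants had the higher fitted level for 17 members and the lower for 20, and the median log2 fold change was -0.02, beside -0.01 over all genes. Scaling by library totals gave 13 higher and 24 lower, with a median of -0.10 beside -0.08 over all genes. Standard errors of the log2 fold changes ran from 0.07 for Parm1 to 0.39 for Slc17a6. No member separated the 6 mutant from the 6 wild-type libraries without overlap, which 0.438% of all genes did, and none did so without female mutant 3, where 1.08% of all genes did. In bulk cortex, fewer neurons of a class and less RNA per neuron cannot be told apart.

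**Figure D1:**
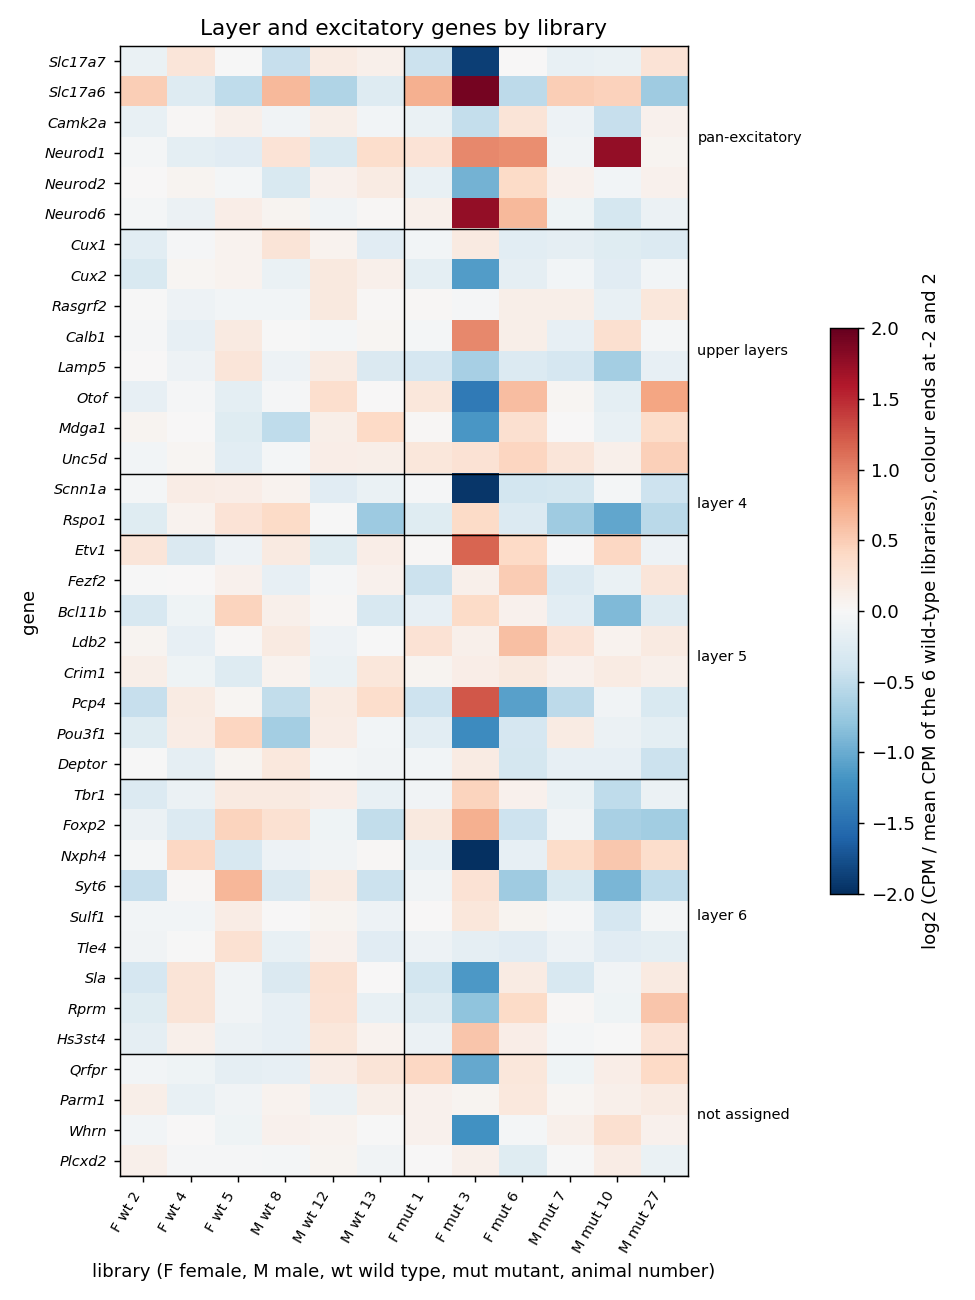
Colour shows log2 of the CPM of a library (columns) over the mean CPM of the 6 wild-type libraries, for the 37 genes (rows) grouped by layer; colours end at 4-fold lower and 4-fold higher, and Nxph4 in female mutant 3 lies beyond. Female mutant 3 has the strongest colours in both directions, and among the other 5 mutant libraries layer 4 is the 1 group whose genes all lie under the wild-type mean.

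**Figure D2:**
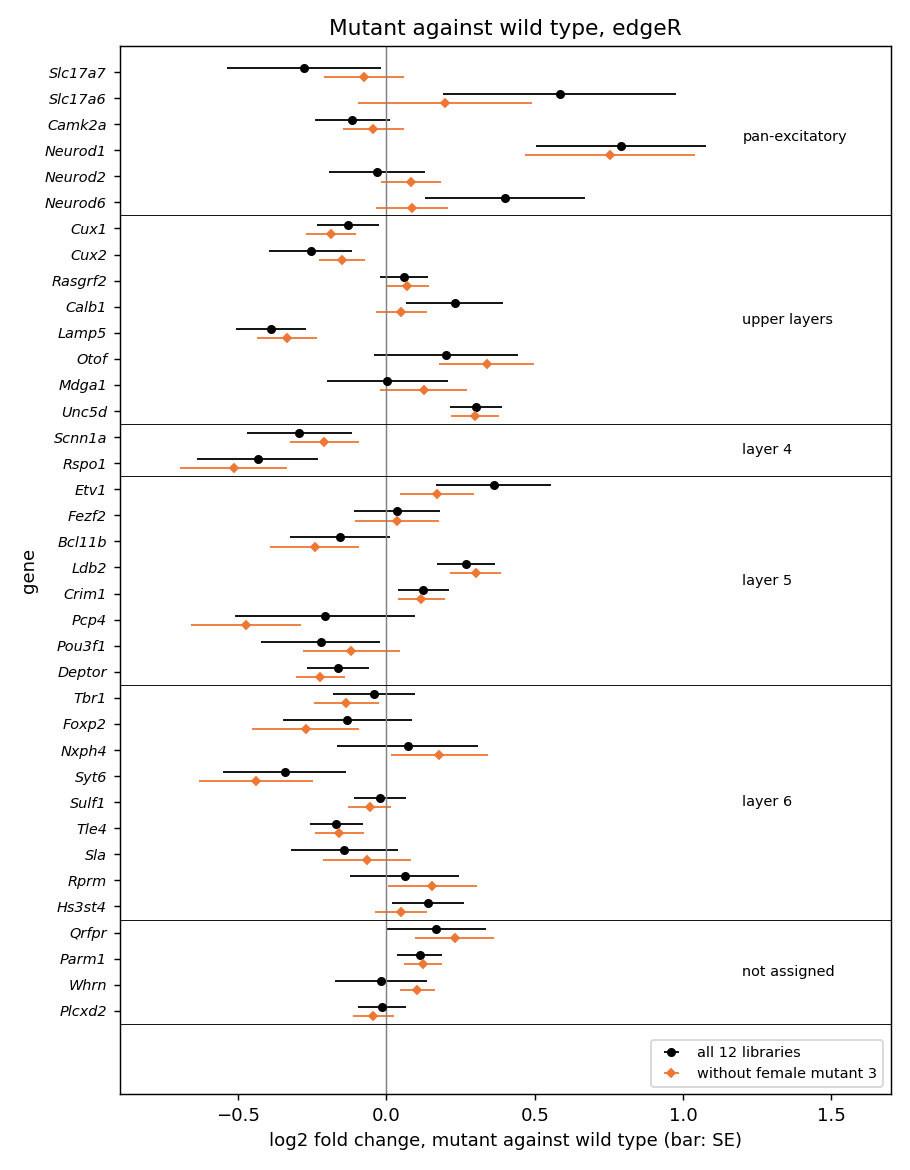
Points are edgeR log2 fold changes of mutant against wild type (horizontal axis) for each gene, with bars of 1 standard error, in all 12 libraries (black circles) and without female mutant 3 (orange diamonds). Most points lie within 1 or 2 standard errors of 0, and the layer groups lie on both sides of 0 except layer 4, whose 2 genes are both lower.

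Without female mutant 3 the fit still called 0 of 37 members, with 0.0108% of 18461 genes called, and the smallest adjusted p of a member was 0.437 (Unc5d). Members at an unadjusted p under 0.05 numbered 9, against 7.46% of all genes. Of these, Unc5d, Ldb2 and Neurod1 had the higher level in mutants, and Lamp5, Rspo1, Deptor, Cux1, Syt6 and Pcp4 the lower. With the mean log2 CPM of the 13 striatal genes as a covariate beside sex, 1 member (Unc5d) was at an unadjusted p under 0.05 in all 12 libraries, against 2.81% of genes. In the 11 libraries without female mutant 3 the same covariate left 2 (Ldb2 and Unc5d), against 5.03%.

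Pan-excitatory genes mark excitatory neurons as a class, though Slc17a6 is also made by thalamic neurons and Neurod1 in the dentate gyrus. Slc17a7, which loads glutamate into synaptic vesicles, had a lowest, median and highest value of 519, 735 and 837 CPM in wild-type libraries and 193, 646 and 860.5 CPM in mutants. The lowest value is that of female mutant 3, and the other 5 mutant libraries (525 to 860.5 CPM) cover the wild-type range almost entirely. Its log2 fold change was -0.28 (SE 0.26, adjusted p = 0.95 by edgeR) in 12 libraries and -0.08 (SE 0.13) in 11. Camk2a gave -0.11 (SE 0.13) and Neurod2, a bHLH factor of cortical projection neurons, -0.03 (SE 0.16), which became -0.04 (SE 0.10) and 0.08 (SE 0.10) in 11. For this group of 6 the median log2 fold change was 0.18, and 0.08 without female mutant 3. In 12 libraries 3 members were higher (Neurod1, Slc17a6 and Neurod6) and 3 lower (Slc17a7, Camk2a and Neurod2). The 9 pan-excitatory genes of a second list, described below, had a median of -0.15, with 3 higher and 6 lower.

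Neurod1 had 10.1, 9.07 and 8.86 CPM in wild-type females 2, 4 and 5, and 12.4, 8.40 and 13.1 CPM in wild-type males 8, 12 and 13. The mutant females 1, 3 and 6 had 12.5, 20.1 and 19.6 CPM, and the mutant males 7, 10 and 27 had 9.88, 34.9 and 10.7 CPM. Male mutant 10 stands highest, female mutants 3 and 6 are also above every wild-type library, and the remaining 3 mutants lie inside the wild-type range. The log2 fold change was 0.79 (SE 0.29, unadjusted p = 0.0163, adjusted p = 0.95 by edgeR), the highest of the 37, and it was 0.42 without male mutant 10. With the striatal covariate it was 0.28 in 12 libraries, and 0.16 in 11. Neurod1 is also made in the dentate gyrus of the hippocampus. Of 8 hippocampal genes, male mutant 10 had 6 inside the wild-type range and Tdo2 under it, while C1ql2 was above it with 17.01 CPM against 2.95 to 8.91 CPM. Prox1 (55.7 CPM against 38.4 to 71.4 CPM) and Dsp (6.34 CPM against 4.69 to 13.2 CPM) were among those inside. The sum of the 8 was 375 CPM in male mutant 10, 571 CPM in female mutant 3 and 297 to 414 CPM in wild types, and most of it is Zbtb20 (269.5 CPM on average in wild types). The part of hippocampal tissue in the Neurod1 values was not tested. Exons of Neurod1 overlap those of Cerkl on the same strand and of Gm26755 on the other, so its count is uncertain to that extent.

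Slc17a6, the glutamate transporter typical of thalamic neurons, divided the libraries along another line. Its counts were 116, 68.98 and 58.4 CPM in wild-type females 2, 4 and 5, 129, 54.4 and 69.3 CPM in wild-type males 8, 12 and 13, 135, 311 and 57.6 CPM in mutant females 1, 3 and 6, and 117, 114 and 50.4 CPM in mutant males 7, 10 and 27. Animals 1, 2, 7, 8 and 10, of both genotypes, were high, and the sums of the thalamic list in those 5 were 242 to 306 CPM against 65.7 to 201 CPM in the 6 lower libraries. Female mutant 3 was higher still, with a thalamic sum of 226 CPM. The log2 fold change of 0.58 (SE 0.39) became 0.20 (SE 0.29) without that library. The part of thalamic tissue in these values was not tested.

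Neurod6, a bHLH factor of the same family, had 101, 318 and 148 CPM in mutant females 1, 3 and 6 and 88.03, 73.6 and 86.6 CPM in mutant males 7, 10 and 27, against 86.1 to 103 CPM in wild-type libraries. Female mutants 3 and 6 were above and male mutant 10 below the wild-type range. Over both sexes its log2 fold change was 0.40 (SE 0.27), and 0.09 (SE 0.12) without female mutant 3.

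Upper-layer neurons connect cortical areas with each other, and their 8 markers split into 5 higher and 3 lower in mutants, around a median of 0.03 on the log2 scale. Unc5d, a netrin receptor of migrating upper-layer neurons, had the smallest unadjusted p of all members. Wild-type females 2, 4 and 5 had 76.2, 81.6 and 68.3 CPM and wild-type males 8, 12 and 13 had 77.3, 86.5 and 86.00 CPM. Mutant females 1, 3 and 6 had 93.2, 96.8 and 107 CPM and mutant males 7, 10 and 27 had 93.4, 84.8 and 111 CPM. In females every mutant was above every wild type, and in males animal 10 fell among the wild types. How many of all genes separate 3 females from 3 in this way was not counted. Fitted over both sexes, the change was 0.30 on the log2 scale (SE 0.09, unadjusted p = 0.00459, adjusted p = 0.95 by edgeR), 0.30 without female mutant 3, and 0.29 with the striatal covariate. Across all alternatives its smallest adjusted p was 0.145.

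Lamp5 had the lower mean in mutants, with 142, 131 and 166 CPM in wild-type females 2, 4 and 5 and 130.2, 157 and 115 CPM in wild-type males 8, 12 and 13. Mutant females 1, 3 and 6 had 111, 88.7 and 116 CPM and mutant males 7, 10 and 27 had 111, 87.3 and 125 CPM. The groups overlap through wild-type male 13 and mutants 6 and 27. For Lamp5 the fit gave a log2 fold change of -0.39 (SE 0.12, unadjusted p = 0.00559, adjusted p = 0.95 by edgeR), and -0.34 without female mutant 3. With the striatal covariate it was -0.25 (unadjusted p = 0.0684 by edgeR) in 12 libraries and -0.17 in 11. Lamp5 also marks a class of interneurons, and the sum of 10 interneuron genes was 1240 to 1430 CPM in wild-type and 1130 to 1260 CPM in mutant libraries; its part in the Lamp5 values was not tested.

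The homeodomain factor Cux2 had 64.6, 82.6 and 90.8 CPM (lowest, median and highest) in wild-type libraries and 36.8, 69.9 and 76.99 CPM in mutants. The lowest mutant value is female mutant 3, and the other 5 mutants (68.4 to 76.99 CPM) lie inside the wild-type range. Its log2 fold change of -0.26 (SE 0.14) was -0.15 (SE 0.08) without that library. Its paralogue Cux1 gave -0.13 (SE 0.10) in 12 libraries and -0.19 (SE 0.08) in 11. Otof, a calcium sensor of vesicle fusion, ranged from 11.2 to 51.7 CPM in mutants against 26.1 to 38.00 CPM in wild types. Its fold change was 0.20 (SE 0.24) on the log2 scale, and 0.34 (SE 0.16, unadjusted p = 0.056 by edgeR) without female mutant 3, the lowest library. Calb1 gave 0.23 (SE 0.16), and 0.05 without female mutant 3. The adhesion protein Mdga1 and the Ras exchange factor Rasgrf2 gave 0.00 (SE 0.21) and 0.06 (SE 0.08), and in 11 libraries 0.12 (SE 0.15) and 0.07 (SE 0.07).

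Layer 4 receives the input from the thalamus, and both of its markers had the lower level in mutants, also without female mutant 3. In the other 5 mutant libraries both genes lay under the wild-type mean, though inside or near the wild-type range. Rspo1 had 6.48, 8.03 and 9.31 CPM in wild-type females 2, 4 and 5 and 9.999, 7.65 and 4.66 CPM in wild-type males 8, 12 and 13. Mutant females 1, 3 and 6 had 6.53, 10.1 and 6.36 CPM and mutant males 7, 10 and 27 had 4.69, 3.76 and 5.30 CPM. The spread within the wild types covers most of the mutants, with male mutant 10 below all wild types and female mutant 3 above all other libraries. Mutant against wild type gave -0.43 on the log2 scale (SE 0.20, unadjusted p = 0.0536, adjusted p = 0.95 by edgeR) in 12 libraries, -0.52 (SE 0.18, unadjusted p = 0.0131, adjusted p = 0.523) in 11, and -0.09 in 12 or -0.18 in 11 with the striatal covariate.

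Scnn1a, the gene used to mark layer 4 neurons of sensory cortex, had 3.83, 4.51 and 4.91 CPM in wild-type and 1.16, 3.47 and 4.40 CPM in mutant libraries (lowest, median and highest). The value of female mutant 3 equals its floor of 3 counts, and the other 5 mutants (3.34 to 4.40 CPM) overlap the wild types. For Scnn1a the log2 fold change was -0.29 (SE 0.18), and -0.21 (SE 0.12) without that library. For the 2 genes together the median log2 fold change was -0.36 in both fits.

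**Figure D3:**
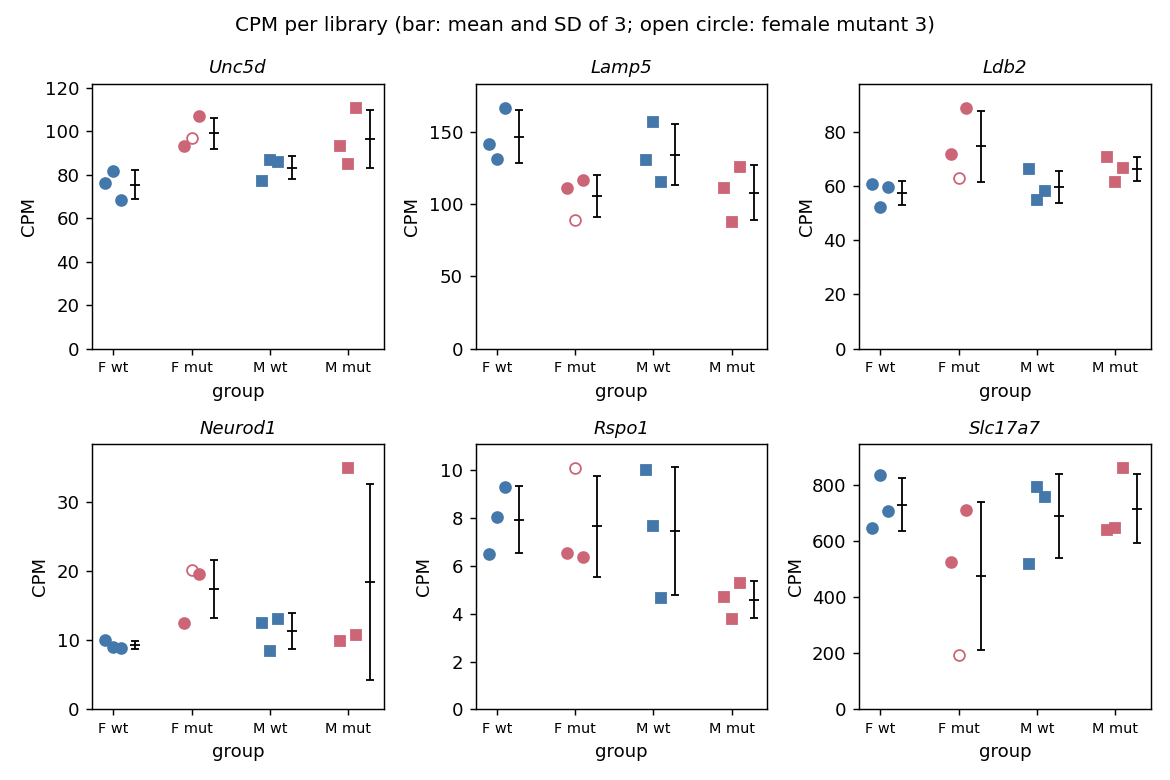
CPM of 6 genes in every library (vertical axis, from 0) by sex and genotype, with F for female, M for male, wt for wild type and mut for mutant; black bars are the mean and SD of 3 libraries and the open circle is female mutant 3. Unc5d and Ldb2 sit higher in the mutants and Lamp5 lower, with overlap in males, while 1 library of 12 sets the scale for Neurod1.

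Layer 5 holds the large neurons that leave the cortex, and its 8 markers split evenly, 4 higher and 4 lower, with a median log2 fold change of -0.06. Ldb2, which links LIM-domain transcription factors, had 60.7, 52.4 and 59.5 CPM in wild-type females 2, 4 and 5 and 66.2, 54.8 and 58.2 CPM in wild-type males 8, 12 and 13. Mutant females 1, 3 and 6 had 71.9, 63.1 and 88.9 CPM and mutant males 7, 10 and 27 had 70.7, 61.7 and 66.7 CPM. The groups overlap only because wild-type male 8 lies above female mutant 3 and male mutant 10. Over both sexes Ldb2 gave a log2 fold change of 0.27 (SE 0.10, unadjusted p = 0.0175, adjusted p = 0.95 by edgeR) and 0.30 (SE 0.09) without female mutant 3. Among all alternatives and members, Ldb2 had the smallest adjusted p, 0.0801 by limma-voom with library weights, which is short of the threshold.

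Etv1, an ETS factor of layer 5 neurons, had 97.02, 119.7 and 141 CPM in wild types and 111, 138 and 267 CPM in mutants (lowest, median and highest). Female mutant 3 is the highest, and the other 5 mutants run from 111 to 158 CPM. The log2 fold change of 0.36 (SE 0.19) became 0.17 (SE 0.12) without it. Deptor, an inhibitor of mTOR, had 49.4, 55.3 and 65.1 CPM in wild types and 41.9, 50.4 and 62.7 CPM in mutants, with overlap. Its log2 fold change was -0.16 (SE 0.10), and -0.22 (SE 0.08, unadjusted p = 0.0174 by edgeR) without female mutant 3.

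Fezf2 and Bcl11b act in sequence in corticospinal neurons. Fezf2 had 18.2, 20.3 and 21.6 CPM in wild types and 14.98, 20.1 and 28.8 CPM in mutants, so that the mutants spread to both sides of a narrow wild-type range. Bcl11b, also a striatal gene, had 108, 131 and 182 CPM in wild types and 72.4, 118 and 174 CPM in mutants, with male mutant 10 lowest and wild-type female 5 highest. Their log2 fold changes were 0.04 (SE 0.14) and -0.16 (SE 0.17), and 0.04 (SE 0.14) and -0.24 (SE 0.15) without female mutant 3. Of the other 3, Crim1, a transmembrane protein of corticospinal neurons, gave 0.12 (SE 0.09) and the POU factor Pou3f1 -0.22 (SE 0.20), which was -0.12 (SE 0.16) in 11 libraries. The calmodulin-binding peptide Pcp4 gave -0.21 (SE 0.30) with 13.2 CPM in female mutant 3, and -0.47 (SE 0.19) without it. Exons of Pcp4 overlap Igsf5 on the same strand, and those of Crim1, Pou3f1 and Deptor overlap genes on the other strand, and the strand setting of the counting is not given.

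Layer 6 neurons project to the thalamus, and of their 9 markers 6 were lower and 3 higher in mutants, around a median of -0.04 on the log2 scale. With the striatal covariate the same 9 had a median of 0.09, with 6 higher and 3 lower, and in 11 libraries a median of 0.05, with 6 higher and 3 lower. Tle4, a Groucho-family corepressor, had 65.1, 73.9 and 94.1 CPM in wild types and 64.8, 66.8 and 71.2 CPM in mutants (lowest, median and highest). The mutants lie close together, at the lower end of the wild-type range or just under it. The log2 fold change was -0.17 (SE 0.09, unadjusted p = 0.0794, adjusted p = 0.95 by edgeR), and -0.05 with the striatal covariate.

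Syt6, a synaptotagmin of layer 6 neurons, had 28.9, 36.2 and 62.5 CPM in wild types and 21.03, 29.9 and 48.01 CPM in mutants. Wild-type female 5 is highest and male mutant 10 lowest, and these 2 libraries also have the highest and lowest striatal sums, 2720 and 452 CPM. Its log2 fold change was -0.34 (SE 0.21), -0.44 (SE 0.19, unadjusted p = 0.0404 by edgeR) without female mutant 3, and 0.08 in 12 or -0.0065 in 11 libraries with the striatal covariate. The exons of Syt6 overlap a pseudogene, Atg4a-ps, on the other strand.

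Foxp2, a forkhead factor of layer 6 and of striatal neurons, had 24.2, 31.8 and 46.2 CPM in wild types and 20.99, 28.9 and 55.4 CPM in mutants. Female mutant 3 is the highest library and male mutants 10 and 27 are the lowest, with the rest mixed. Foxp2 gave a log2 fold change of -0.13 (SE 0.22), -0.27 (SE 0.18) without female mutant 3, and 0.21 in 12 or 0.05 in 11 libraries with the striatal covariate. Hs3st4, a heparan sulfotransferase, went from 52.5, 58.9 and 70.1 CPM in wild types to 55.00, 62.3 and 87.1 CPM in mutants, with overlap over most of the range. The fitted log2 change was 0.14 (SE 0.12), and 0.05 (SE 0.09) without female mutant 3.

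Tbr1, the factor that specifies corticothalamic neurons, gave -0.04 (SE 0.14), the sulfatase Sulf1 -0.02 (SE 0.09), Sla -0.14 (SE 0.18) and the cell-cycle inhibitor Rprm 0.06 (SE 0.18) on the log2 scale. Nxph4, a secreted neurexin ligand, gave 0.07 (SE 0.24), and its 0.387 CPM in female mutant 3 is 1 read, under the floor of that library. In 12 libraries each of these 5 fold changes is smaller than its standard error. Without female mutant 3 they were -0.14 (SE 0.11) for Tbr1, -0.06 (SE 0.07) for Sulf1, -0.07 (SE 0.15) for Sla, 0.15 (SE 0.15) for Rprm and 0.18 (SE 0.16) for Nxph4, and those of Tbr1, Rprm and Nxph4 exceed it.

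Of the 4 genes with no layer, Parm1, a mucin-like membrane protein, had 78.6, 86.8 and 94.5 CPM in wild types and 89.3, 92.7 and 101 CPM in mutants (lowest, median and highest). The mutants cluster in the upper part of the wild-type range and above it, and the log2 fold change was 0.11 (SE 0.07). Qrfpr, a neuropeptide receptor, had 2.79, 2.999 and 3.77 CPM and 1.55, 3.57 and 4.21 CPM, with female mutant 3 lowest, and a log2 fold change of 0.17 (SE 0.17). Plcxd2 had 149, 154 and 167 CPM in wild types and 132, 156 and 174 CPM in mutants, which enclose them, and -0.02 (SE 0.08) with all libraries or -0.04 (SE 0.07) in 11. Whrn, a scaffold protein, gave -0.02 (SE 0.16), and 0.10 (SE 0.06) without female mutant 3.

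Each layer was then summarised in every library as the mean log2 CPM of its members, relative to the mean of the wild types. Layer 4 had the lowest mutant mean, -0.43 ± 0.21 (SD, n = 6) against a wild-type SD of 0.25. Mutants ran from -0.72 to -0.10 and wild types from -0.39 to 0.25, so the groups overlap. Without female mutant 3 the mutant mean was -0.37 ± 0.17 (SD, n = 5). Layer 6 gave -0.12 ± 0.11, the upper layers -0.04 ± 0.19, layer 5 0.00 ± 0.14 and the pan-excitatory genes 0.15 ± 0.13 (SD, n = 6 each), each with overlap between the genotypes. Without female mutant 3 the upper layers turned to 0.02 ± 0.13 and layer 5 to -0.06 ± 0.05, with layer 6 at -0.08 ± 0.09 and the pan-excitatory genes at 0.13 ± 0.14 (SD, n = 5 each). Over all 37 members the mutants ran from -0.14 to 0.06 and the wild types from -0.07 to 0.05. No test was made of these means, because the members were listed with results of these data known.

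**Figure D4:**
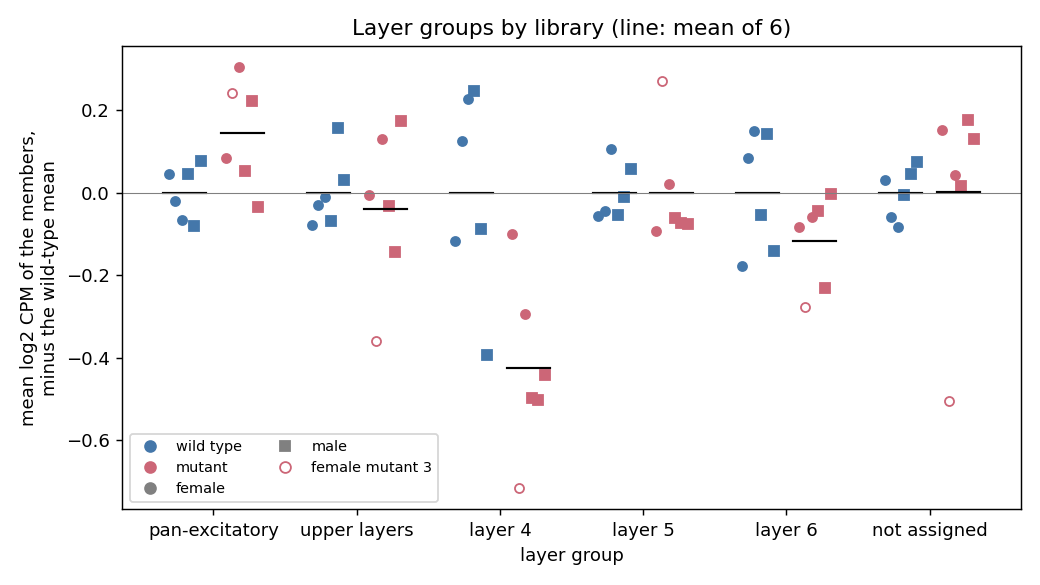
Each point is 1 library, placed by the mean log2 CPM of the members of a layer group minus the wild-type mean (vertical axis); blue is wild type, red mutant, circles are females, squares males, the open circle is female mutant 3, and lines are means of 6. Layer 4 has the lowest mutant mean (-0.43), and wild types and mutants overlap in every group.

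The effect was next taken within each sex, to ask whether it was shared. In females 0 of 37 members had an adjusted p under 0.05 by edgeR, as for all genes (0%), and 5 were at an unadjusted p under 0.05 against 11.8% of genes. They were Neurod6 (0.99, SE 0.31), Unc5d (0.40, SE 0.12), Ldb2 (0.39, SE 0.13), Lamp5 (-0.47, SE 0.17) and Etv1 (0.63, SE 0.26), as log2 fold changes. Without female mutant 3 there were 7 (Lamp5, Neurod6, Ldb2, Qrfpr, Otof, Unc5d and Pcp4) against 9.41% of genes, and Etv1 was not among them. Leaving out female mutant 1 gave 10, against 20.1% of genes, and wild-type female 4 or 5 gave 3, against 4.48% and 8.67%. In males 0 members were called, again as for all genes (0%), and Rspo1 (-0.70, SE 0.27) was the 1 member at an unadjusted p under 0.05 against 2.78% of genes. Without female mutant 3, which changes the spread shared by all groups, 6 members were (Deptor, Lamp5, Rspo1, Cux1, Tbr1 and Nxph4) against 8.43% of genes. The 6 male libraries fitted alone gave 5 against 6.83%, and leaving out wild-type male 8 or 12 gave 0, against 1.76% and 2.05%. DESeq2, limma-voom and the weighted fit called 0 members in either sex. Of all 18016 genes they called 6, 0 and 4 in females and 4, 0 and 1 in males.

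The difference between the male and the female effect was tested itself. It called 0 members and 0% of genes by edgeR, and 1 member, Neurod6, was at an unadjusted p under 0.05 against 7.67% of genes. For Neurod6 the male minus the female effect was -1.18 (SE 0.43, adjusted p = 0.555), and -0.60 without female mutant 3. Members at an unadjusted p under 0.05 then numbered 3 (Neurod6, Ldb2 and Nxph4), against 10.6% of genes. They numbered up to 4 with wild-type female 5 or male 13 left out, against 6.78% and 6.76%. The interaction was positive for 13 and negative for 24 members, and positive for 52.2% of all genes. Scaling by library totals reversed that balance, to 25 positive and 12 negative members and 70.3% of all genes positive. Between males and females of both genotypes 0 members were called, where 0.0389% of genes were, and 0 members were at an unadjusted p under 0.05 against 1.77% of genes by edgeR. Leaving out wild-type female 2 or wild-type male 8 gave 3 members, against 2.16% and 4.65% of genes. DESeq2, limma-voom and the weighted fit called 0 members in these comparisons too. Of all 18016 genes they called 4, 0 and 1 for the interaction and 12, 7 and 10 between the sexes.

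A second list of 42 layer and excitatory genes, none of them a member, was read beside the first. All 42 were tested, and 0 were called by edgeR or by the 3 other tools. Of all 18016 genes edgeR called 1, and DESeq2, limma-voom and the weighted fit called 29, 1 and 22. At an unadjusted p under 0.05 there were 5 of the 42, where 3.96% of all genes were. Leaving out 1 library gave from 2 (wild-type female 5, against 2.81% of genes) to 6 (male mutant 27, against 3.94%). Mutants had the higher level for 18 and the lower for 24, with a median log2 fold change of -0.03 beside -0.01 over all genes. Scaling by library totals gave 12 higher and 30 lower. The medians by layer were -0.15 (pan-excitatory), -0.06 (upper layers), -0.01 (layer 4), 0.11 (layer 5) and -0.04 (layer 6). In the same order the members had 0.18, 0.03, -0.36, -0.06 and -0.04. The sign differed in the pan-excitatory genes, the upper layers and layer 5. The 4 of smallest p were Igfbp4 of layer 5, a binding protein of insulin-like growth factors (-0.40, SE 0.12), the potassium channel Kcnh5 of layer 4 (-0.32, SE 0.11), the complexin Cplx3 of layer 6b (-0.47, SE 0.19) and the nuclear receptor Nr4a2 (0.54, SE 0.23), which is shared by layer 6b and the claustrum. Rorb, the nuclear receptor that marks layer 4 most widely, gave -0.01 (SE 0.21) in 12 libraries, with 128 CPM in female mutant 3. The other 5 mutants had 43.6 to 65.2 CPM and the wild types 59.9 to 80.7 CPM. Without female mutant 3 the change was -0.22 (SE 0.11, unadjusted p = 0.0677 by edgeR), lower in mutants as for the 2 layer 4 members. Rora, the remaining layer 4 gene of this list, gave 0.12 (SE 0.22) in 12 libraries and -0.06 (SE 0.17) without female mutant 3.

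Because Bcl11b, Foxp2 and other members are also transcribed in striatum, each of the 37 was set against the striatal list (the mean log2 CPM of its 13 genes) across the 11 libraries without female mutant 3. All 18016 tested genes went through the same permutation test with 100000 resamples, two-sided, and p-values were adjusted over all of them. At an adjusted p under 0.05 there were 3 members by Pearson's r (Syt6, Tle4 and Crim1), against 1.14% of genes, and 2 (Syt6 and Crim1) by Spearman's rho, against 0.627%. Members at an unadjusted p under 0.05 by r numbered 13, of which 9 were positive and 4 negative, against 10.96% of genes. With all 12 libraries 1 member (Syt6) was called by r, against 0.289% of genes.

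Syt6 followed the list most closely, with r = 0.951 (permutation p = 1e-05, the smallest that this test can give; adjusted p = 0.00328) and rho = 0.918 (permutation p = 0.00017, adjusted p = 0.0348). Tle4 had r = 0.859 (permutation p = 0.0003, adjusted p = 0.0346) and rho = 0.864 (permutation p = 0.00114, adjusted p = 0.102). Crim1 ran against it, with r = -0.867 (permutation p = 0.0003, adjusted p = 0.0346) and rho = -0.936 (permutation p = 8e-05, adjusted p = 0.0212). Leaving out the 2 libraries farthest from the median of the list, male mutant 10 and wild-type female 5, gave r = 0.892 for Syt6, 0.8 for Tle4 and -0.877 for Crim1 over 9 libraries. With the mean of each sex and genotype group removed, r was 0.937, 0.862 and -0.886. The 3 values changed little when only differences within a sex and genotype group were used.

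Bcl11b (r = 0.867, permutation p = 0.00121, adjusted p = 0.0736) and Foxp2 (r = 0.816, permutation p = 0.0019, adjusted p = 0.093) missed the threshold after adjustment. Without the 2 farthest libraries their r was 0.535 and 0.663. Lamp5 (r = 0.841) and Rspo1 (r = 0.859) were likewise positive, and Neurod1 (r = -0.778) negative, with adjusted permutation p-values of 0.0909, 0.0603 and 0.126. Unc5d (r = -0.491, permutation p = 0.122) and Ldb2 (r = -0.304, permutation p = 0.362) did not pass even before adjustment. What sets the striatal share of a library was not tested.

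**Figure D5:**
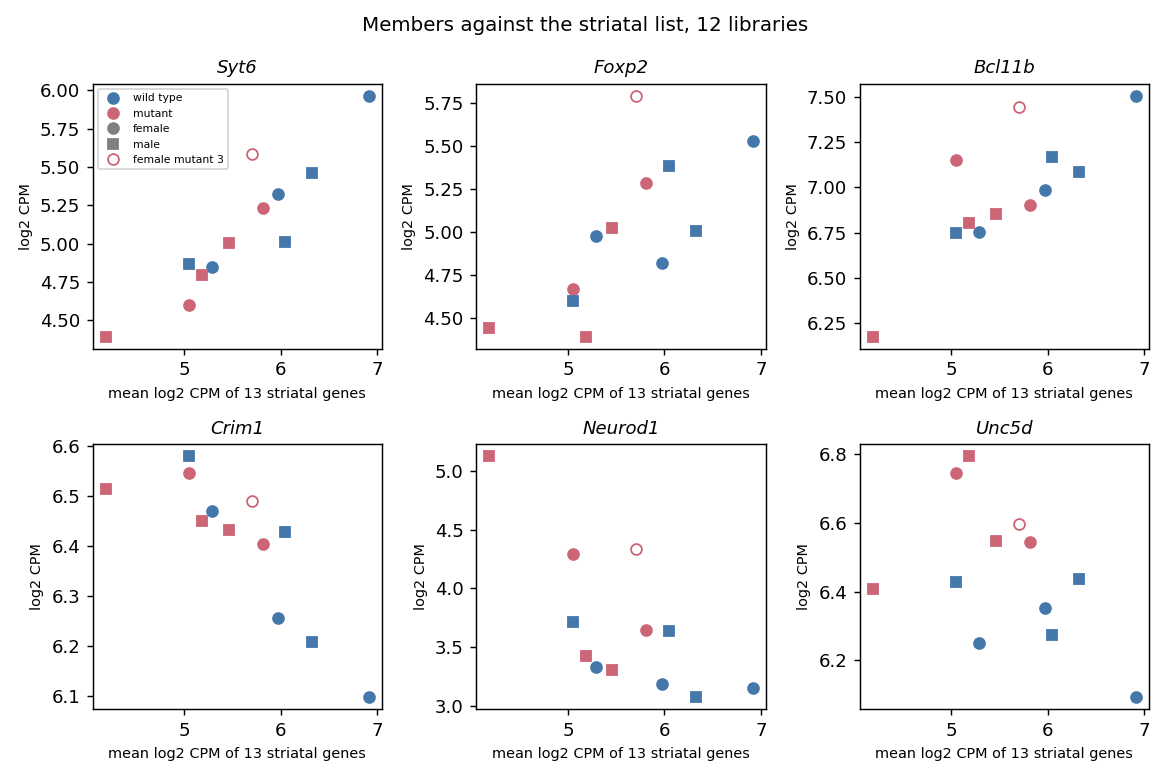
Log2 CPM of 6 genes (vertical axes) against the mean log2 CPM of 13 striatal genes (horizontal axes) in 12 libraries, with wild type in blue, mutant in red, females as circles, males as squares and female mutant 3 open. Syt6, Foxp2 and Bcl11b rise and Crim1 falls with the striatal list. Over these 12 libraries Syt6 alone had an adjusted permutation p under 0.05 by Pearson's r. Unc5d is mostly higher in mutants, in which the striatal list itself is lower.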

How the data were processed

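RNA from cortex of 12 mice was sequenced as paired reads. The authors deposited raw counts per Ensembl gene and library. Per the submitters' processing notes, Trimmomatic 0.36, HISAT2 2.1.0, HTSeq 0.11 and Cufflinks were used with build GRCm38.p6. For the counting, neither annotation release nor strand setting is given in the sources used here; overlapping genes are therefore uncertain. Of 54232 identifiers, 54165 matched GENCODE M21. The labels name 1 mouse per library and no batch.

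Genes were kept by filterByExpr over the 4 groups and scaled by TMM. The test was the quasi-likelihood F test of edgeR 4.0.16 under R 4.3.3. Each SE of an edgeR fold change is the absolute log2 fold change divided by the square root of F. The model held genotype and sex, or 1 mean per group for the effect in each sex and for the interaction. Benjamini-Hochberg adjustment covered every tested gene, and calls were made at 0.05. CPM are on TMM-scaled totals, and log2 CPM have a prior count of 2. Lengths are merged exons. Alternatives were DESeq2 1.42.0, limma-voom (limma 3.58.1) with and without library weights, RLE and total scaling, 2 other filters, no sex term, 2 covariates, each sex alone and each library left out. The striatal covariate in 11 libraries, and the counts of unadjusted p-values and of groups without overlap in 11 libraries, were added after seeing the data. Relations to the striatal list were adjusted over all tested genes rather than over the 37, also a later choice. The scripts were tested on simulated data.

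Members and lists were chosen with earlier results of these data known. Values per library, or their lowest and highest by genotype, mostly with the median, are given for a set of members. These are the 3 of smallest p in each layer (all in layer 4) and Slc17a7, Cux2, Scnn1a, Fezf2, Bcl11b, Foxp2 and Tle4. The range of Otof is given as well, outside this rule. Of the second list, the 4 genes of smallest p are named, and Rorb, Rora, Zbtb20, C1ql2, Prox1 and Dsp were added after their values were seen.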

Additional observations from a re-analysis of the deposited data

Results flagged for a closer look

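In each gene the 6 wild-type and the 6 mutant libraries were searched for a highest or lowest value that stands apart from the other 5 (a gap, as a share of the range, above Dixon's critical value), which chance alone gives in about 1 of 20 groups. Of 74 groups, 9 held such a value, and 8 of the 9 were female mutant 3, the library of lowest depth. Above the other mutants it had 311 CPM for Slc17a6 (next 135), 318 CPM for Neurod6 (next 148), 278 CPM for Calb1 (next 178), 267 CPM for Etv1 (next 158) and 13.2 CPM for Pcp4 (next 5.28). Below them it had 36.8 CPM for Cux2 (next 68.4), 1.16 CPM for Scnn1a (next 3.34) and 15.5 CPM for Whrn (next 35.05). The remaining value was Otof in wild-type male 12, with 38.0 CPM (next 30.1). Among the 37 members female mutant 3 was the lowest library for 13 and the highest for 10, and male mutant 10 was the lowest for 9 and the highest for 4.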

How the results depend on the processing

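The count of called members was 0 in every alternative run for each of the 5 comparisons, and the second list also kept 0 calls. Over all genes the largest count of calls was 53 of 18461, by DESeq2 over both sexes without female mutant 3. No paired analysis was possible because animal numbers differ between all 4 groups. Members at an unadjusted p under 0.05 numbered 4 in the main fit, against 3.96% of all genes. Leaving out female mutant 6 or male mutant 10 gave 3, the lowest count, against 3.47% and 3.99% of genes. Leaving out female mutant 3 gave 9, the highest, against 7.46%. With the mitochondrial covariate there were 9, against 7.97% of genes. Scaling by library totals turned the 17 higher and 20 lower members into 13 and 24. The relation to the striatal list was called for 3 members in 11 libraries and for 1 in 12. Of the 37 log2 fold changes, none of them called, 14 kept their sign in all 27 alternatives, among them Unc5d, Lamp5, Ldb2, Neurod1, Rspo1 and Scnn1a. The signs of the other 23 turned as follows, as log2 fold changes. Leaving out 1 library gave Neurod2 -0.17 to 0.082, Mdga1 -0.12 to 0.12, Fezf2 -0.10 to 0.13, Tbr1 -0.14 to 0.043, Sulf1 -0.057 to 0.033, Rprm -0.070 to 0.15, Whrn -0.083 to 0.10 and Plcxd2 -0.055 to 0.029. DESeq2 gave Mdga1 -0.0091, and without female mutant 3 Neurod2 0.084 and Whrn 0.11. Limma-voom gave Whrn 0.021, with library weights Calb1 -0.015, Mdga1 -0.0056, Fezf2 -0.16, Hs3st4 -0.025 and Whrn 0.10, and with weights but without female mutant 3 Calb1 -0.028, Mdga1 -0.010, Fezf2 -0.16, Hs3st4 -0.032 and Whrn 0.11. No filter gave Mdga1 -0.0043, and scaling by totals Rasgrf2 -0.028, Mdga1 -0.065, Fezf2 -0.045 and Rprm -0.0100. The mitochondrial covariate gave Neurod2 0.11 and Whrn 0.096. The striatal covariate gave Cux1 0.018, Mdga1 -0.14, Fezf2 -0.039, Bcl11b 0.15, Tbr1 0.17, Foxp2 0.21, Nxph4 -0.086, Syt6 0.084 and Sulf1 0.092, and without female mutant 3 Camk2a 0.056, Neurod2 0.018, Calb1 -0.015, Etv1 -0.035, Fezf2 -0.047, Bcl11b 0.064, Crim1 -0.015, Pou3f1 0.029, Tbr1 0.062, Foxp2 0.052, Sulf1 0.055 and Whrn 0.079. Females alone gave Cux1 0.033, Mdga1 -0.049, Bcl11b 0.065, Pcp4 0.010, Tbr1 0.23, Foxp2 0.15, Nxph4 -0.40, Sulf1 0.085 and Rprm -0.092, and males alone Slc17a7 0.054, Neurod2 0.039, Neurod6 -0.19, Fezf2 -0.0074, Pou3f1 0.11, Whrn 0.13 and Plcxd2 0.026. The cause was not tested. The depth of female mutant 3 limits Scnn1a and Nxph4, which are at or under 3 counts there.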

Other observations

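The promoter windows of the members are rich in G and C. Their median GC content was 63.5%, against 52.7% over all windows, and they held a median of 17.5 CpG dinucleotides against 7. The range was wide, from 2 CpG in a window of Lamp5 to 48 in a window of Cux2.

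Other cell classes in these libraries varied less than the striatal list, whose highest sum was 6.02 times its lowest. That ratio was 1.27 for interneurons, 1.22 for microglia and 1.41 for astrocytes, and 4.66 for the thalamic list. Ntsr1, the neurotensin receptor that marks corticothalamic neurons, had 7.13 ± 0.863 CPM in wild types and 6.48 ± 3.04 CPM in mutants (SD, n = 6 each), with a log2 fold change of -0.04 (SE 0.25). In female mutant 3 it had 0.387 CPM, under the floor of that library. The other 5 mutants had 7.70 ± 0.653 CPM (SD, n = 5), above the wild-type mean, and a log2 fold change of 0.09 (SE 0.10). Ntsr1 was chosen after its values were seen.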
